A study of Mus musculus with 9 samples.

Results

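The genes described here are 10 interleukin receptor chains of effector CD8+ T cells: Il2ra, Il2rb, Il15ra, Il7r, Il21r, Il4ra, Il12rb1, Il12rb2, Il18r1 and Il18rap. They were chosen by name from 55471 gene identifiers, and all 10 were among the 14918 genes with enough reads to test. Polyadenylated RNA was measured by sequencing in CD8+ T cells of the OT-I type, whose transgenic receptor recognises an ovalbumin peptide, taken from mice on day 7 after infection with LmOVA, an ovalbumin-expressing Listeria. The control group (Bdh1-WT;shCtrl) had 4 libraries, from cells with intact Bdh1 and an shRNA against firefly luciferase. The DKO group (Bdh1-KO;shOxct1) had 5 libraries, from cells labelled as Bdh1 knockout and carrying an shRNA against Oxct1. BDH1 and OXCT1 are mitochondrial enzymes that break down ketone bodies, and the comparison asks what T cells express when both are targeted. Cells of both groups were activated through CD3 and CD28 for 24 h with 50 U/mL IL-2, transduced, and kept for 2 days more with IL-2. They were then sorted for the Ametrine reporter and moved into C57BL/6 hosts that carry CD45.1, so that donor cells could be sorted back by CD45.2 and Ametrine. Every library therefore came from cells that had met IL-2 in culture and carried an shRNA vector. The hosts kept their own immune cells. The sources used here do not give how Bdh1 was removed, the animals' ages, or whether the libraries came from separate mice, so the p-values measure the spread between these libraries, which may be technical.

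IL-2, IL-15, IL-7, IL-21 and IL-4 signal through receptors that share the common gamma chain, encoded by Il2rg, and act through the kinases JAK1 and JAK3 and through STAT proteins. IL-2 and IL-15 also share the beta chain, and each has a private alpha chain that raises affinity. IL-12 binds a receptor of paired beta chains and activates STAT4, while IL-18 binds a receptor of the IL-1 family that signals through MyD88. In CD8+ T cells, IL-2, IL-12 and inflammatory signals favour short-lived effector cells, whereas IL-7 and IL-15 sustain memory cells.

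The libraries held 45205993 to 59853080 counts in genes, 67.0 to 74.0% of the reads reported. Oxct1 was at 63.1 ± 5.73 CPM (counts scaled to library size with TMM factors) over the controls and 5.16 ± 0.369 CPM over the DKO libraries, where ± is the SD throughout (n = 4 for control, n = 5 for DKO), and Bdh1 fell from 30.5 ± 4.16 to 10.6 ± 1.24 CPM. Each of the targeted genes had an exact permutation p of 0.00794 (two-sided, the smallest this design gives). Control replicate 1 stood apart, with 16.7% unmapped reads against 10.3 to 12.3% in the other 8 libraries and a first principal component score of -79.1 against -7.25 to 23.5. Control replicate 3 stood apart on the second component, at -70.2. Xist ranged from 0 to 0.351 CPM over the controls and 11.4 to 23.6 CPM over the DKO libraries, and 4 genes of the Y chromosome did not exceed 0.0210 CPM in any library, so whatever sets Xist cannot be told apart from the genotype. The 7 CD8 T cell markers summed to 10222 to 11125 CPM (control) and 8970 to 9928 CPM (DKO). All 7 had negative fold changes, and Cd8b1, the CD8 beta chain, fell from 2245 to 1701 CPM (adjusted p 0.0428, edgeR).

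Of the 10 members, 8 were matched in the RefSeq promoter table (GRCm38.p6, 250 bases before to 50 after each start), in 11 windows of 300 bases; Il2rb and Il12rb1 were not. The promoters of Il21r and Il12rb2, from the group of genes with separated values in the libraries, and of Il7r, the member with the largest SD relative to its mean among the DKO libraries, are shown 5′ to 3′ on the strand of the gene. Capitals mark matches on either strand to the motifs searched.
Il21r: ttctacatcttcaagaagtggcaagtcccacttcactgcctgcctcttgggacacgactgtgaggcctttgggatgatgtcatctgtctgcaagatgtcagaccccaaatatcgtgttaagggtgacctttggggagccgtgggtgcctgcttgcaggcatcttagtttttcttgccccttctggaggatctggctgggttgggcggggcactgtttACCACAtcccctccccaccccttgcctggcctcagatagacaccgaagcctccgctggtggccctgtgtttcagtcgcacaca
Il12rb2: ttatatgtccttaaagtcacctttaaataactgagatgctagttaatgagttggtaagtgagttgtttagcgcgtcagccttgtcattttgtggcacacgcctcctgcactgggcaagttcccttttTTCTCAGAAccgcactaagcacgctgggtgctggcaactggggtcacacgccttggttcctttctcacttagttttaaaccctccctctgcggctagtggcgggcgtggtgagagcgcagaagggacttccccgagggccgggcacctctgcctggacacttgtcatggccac
Il7r: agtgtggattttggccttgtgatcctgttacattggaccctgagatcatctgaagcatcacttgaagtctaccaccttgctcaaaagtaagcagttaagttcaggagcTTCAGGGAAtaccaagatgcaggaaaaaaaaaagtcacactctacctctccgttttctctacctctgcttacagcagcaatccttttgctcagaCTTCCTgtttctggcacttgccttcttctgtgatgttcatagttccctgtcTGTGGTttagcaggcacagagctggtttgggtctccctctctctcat
These windows lie at chr7:125603179-125603478 on the plus strand, chr6:67376139-67376438 on the minus strand and chr15:9529827-9530126 on the minus strand. They held 7, 12 and 1 CpG dinucleotides respectively, beside a median of 7 over all promoters in the table.

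The letters TTCNNNGAA, the gamma-activated site bound by STAT proteins, were found in 3 of the 11 windows, for Il12rb2, Il18r1 and Il7r. They were in 8.30% of all 32851 promoters. The site in the Il12rb2 window begins at position -123 from the start and the one in the Il7r window at -142, while one of the Il18r1 windows has sites at -219 and -152. The Runx letters TGTGGT were found in 4 of the 11 windows, for Il18r1, Il18rap, Il21r (at -33) and Il7r (at 4), against 16.8% of all promoters. The ETS letters AGGAAG were found in 6 of the 11 windows, for Il15ra, Il18r1, Il18rap, Il2ra, Il4ra and Il7r, against 35.4%. The AP-1 letters TGANTCA were in 1 of the 11, for Il15ra, against 7.81%. The T-box letters GGTGTGA, in 3.98% of promoters, were in none of the 11 windows. No 2 of these motifs overlapped within the 3 windows printed. A match is a description of the letters, not of a bound site.

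Across the receptors, Il21r rose in DKO cells, both IL-12 receptor chains had higher values in every DKO library than in any control library without passing the threshold, and the remaining 7 genes had overlapping groups. In the quasi-likelihood test of edgeR, 1 gene of the 10 had an adjusted p below 0.05, beside 2.83% of all genes tested (1.32% higher and 1.51% lower in DKO). The 3 members whose groups did not overlap were all higher in DKO, a pattern that 4.62% of all tested genes showed. The log2 fold changes were positive for 6 members and negative for 4, with a median of 0.20 beside -0.01 over all tested genes. In RNA of a sorted population, a larger share of cells with a transcript and more transcript per cell cannot be told apart.

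**Figure D1:**
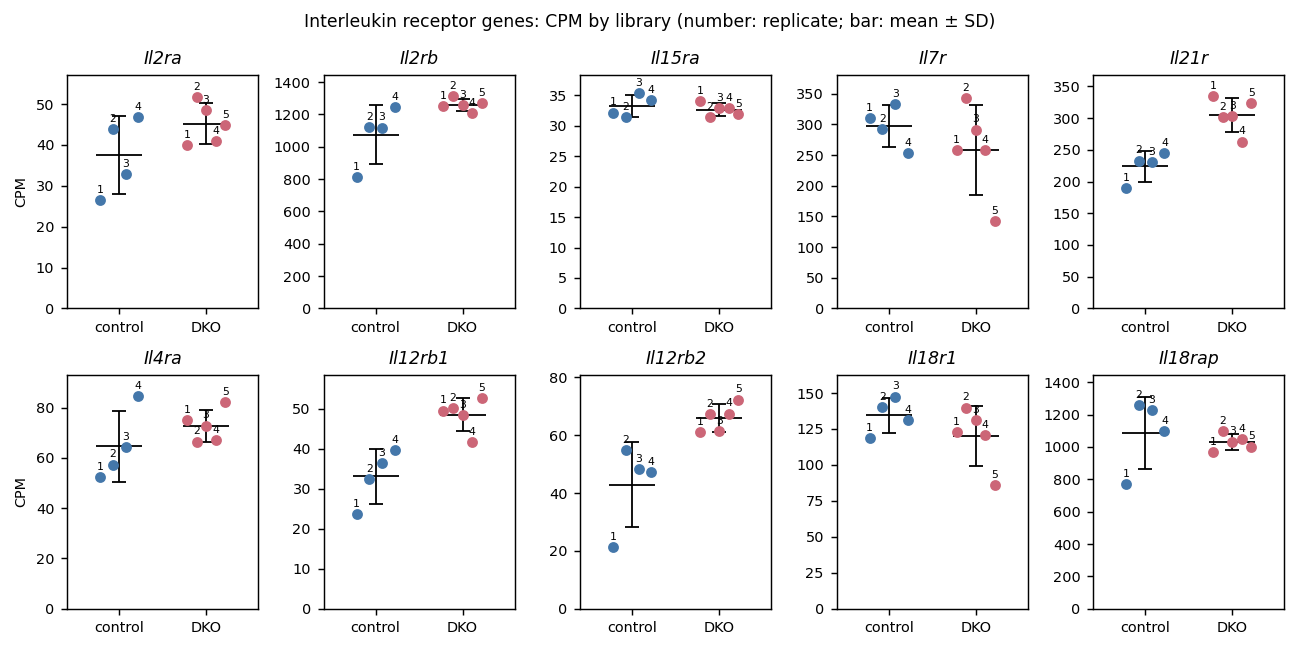
CPM (vertical axes, from 0) of the 10 receptor genes in each control library (blue) and DKO library (red), numbered by replicate, with the group mean and SD as a black bar. The groups are separate for Il21r, Il12rb1 and Il12rb2, control replicate 1 is the lowest control for 8 of the 10 genes, and DKO replicate 5 is the lowest point for Il7r and Il18r1.

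Il21r (ENSMUSG00000030745.9, chromosome 7, 125603429 to 125633570, plus strand, GENCODE M21 on mm10) encodes the private chain of the IL-21 receptor, which signals mainly through STAT3. Its level in the control libraries was 189.1, 233.0, 230.4 and 244.9 CPM, and in the DKO libraries 334.0, 301.2, 302.5, 262.7 and 323.6 CPM. Every DKO library was above every control library, with DKO replicate 4 closest to the controls and control replicate 1 the lowest of all. The mean rose from 224.3 ± 24.3 to 304.8 ± 27.4 CPM, 1.36 times the control mean. In edgeR this was a log2 fold change of 0.44 with a 95% interval of 0.23 to 0.65 (SE 0.10), and the adjusted p was 0.0357. Its direction held in each of the 17 alternatives, from 0.34 to 0.49, but the call did not: it was kept in 2 of the 9 fits that left out 1 library, those without control replicate 1 or DKO replicate 4. Without any of the other 7 libraries the adjusted p was between 0.0600 and 0.101. The promoter of Il21r, printed above, carries the Runx letters on the opposite strand.

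Il4ra encodes the alpha chain of the IL-4 receptor, which is also part of the IL-13 receptor. It lies next to Il21r on the same strand of chromosome 7 (125552120 to 125579474), with 23954 bp and no protein-coding gene between them. Its values ranged from 52.5 to 84.4 CPM over the controls and 66.4 to 82.0 CPM over the DKO libraries. The groups overlapped fully, since control replicate 4 was the highest library and control replicate 1 the lowest. With a log2 fold change of 0.17 (95% interval -0.12 to 0.46), Il4ra did not pass the threshold (adjusted p 0.585, edgeR). Il4ra shares 571 exon positions with Gm44876 on the opposite strand, and the reads there cannot be assigned in counts made without strand. Per library, the length-scaled ratio of Il21r to Il4ra averaged 6.39 ± 0.865 for control against 7.59 ± 0.516 for DKO, with overlapping groups.

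Of the chains for IL-2 and IL-15, the shared beta chain had the most counts. Il2rb (chromosome 15, 78479256 to 78495271, minus strand) was at 813.5, 1124.0, 1118.1 and 1247.6 CPM in the control libraries and 1251.9, 1314.6, 1256.5, 1208.5 and 1270.5 CPM in the DKO libraries. The DKO libraries lay close together and overlapped only control replicate 4, which exceeded DKO replicate 4. Il2rb had a log2 fold change of 0.23 (SE 0.11, 95% interval -0.01 to 0.46), an unadjusted p of 0.0560 and an adjusted p of 0.332 (edgeR), and without control replicate 1 the fold change was 0.10.

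Il2ra encodes CD25, the alpha chain that gives the IL-2 receptor its high affinity. Its mean was 37.5 ± 9.46 CPM for the controls and 45.2 ± 5.01 CPM for the DKO libraries, and the control range of 26.5 to 46.8 CPM overlapped the DKO range of 39.9 to 51.7 CPM. Its adjusted p was 0.451 (edgeR), and the interval of its log2 fold change was -0.08 to 0.62.

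Il15ra, which encodes the alpha chain that binds and presents IL-15, had the closest group means of the 10 members. The means were 33.2 ± 1.83 CPM (control) and 32.6 ± 1.03 CPM (DKO), and the interval of its log2 fold change ran from -0.20 to 0.15 (adjusted p 0.897, edgeR). Il2ra (chromosome 2, 11642807 to 11693193) and Il15ra (11705290 to 11734317) are neighbours on the plus strand, 12096 bp apart. In the control libraries Il15ra was highest in replicate 3, whereas Il2ra was highest in replicate 4.

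Il2rg, the chain shared by all of these receptors, ranged from 356.8 to 455.8 CPM over the controls and 373.2 to 417.0 CPM over the DKO libraries. Its log2 fold change was close to 0, at -0.06 (95% interval -0.24 to 0.11, adjusted p 0.754, edgeR). It shares 728 exon positions with Gm20489, a protein-coding model on the same strand of the X chromosome.

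Il7r (chromosome 15, 9505788 to 9530176, minus strand) encodes the IL-7 receptor alpha chain, a marker of memory precursors among effector CD8+ T cells. Its control libraries were at 309.8, 292.8, 333.3 and 252.8 CPM and its DKO libraries at 257.6, 343.0, 291.6, 257.6 and 142.5 CPM. DKO replicate 2 was the highest of all 9 libraries and DKO replicate 5 the lowest, well below every other. The DKO standard deviation, 73.7 CPM, exceeded the difference between the means of 297 and 258.5 CPM. For Il7r the log2 fold change of -0.20 had a 95% interval of -0.63 to 0.23 (SE 0.20, adjusted p 0.670, edgeR), and without DKO replicate 5 the value was -0.05.

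The IL-12 receptor showed the largest fold changes among the members. Il12rb1 (ENSMUSG00000000791.9, chromosome 8, 70808449 to 70821424, plus strand) encodes the beta 1 chain, which is also used by the IL-23 receptor. It was at 23.6, 32.5, 36.5 and 39.7 CPM in the control libraries and 49.5, 50.1, 48.4, 41.7 and 52.7 CPM in the DKO libraries. The groups did not overlap, but DKO replicate 4 exceeded control replicate 4 only slightly, and control replicate 1 was again the lowest. The DKO mean of 48.5 ± 4.11 CPM was 1.47 times the control mean of 33.1 ± 6.95 CPM. This log2 fold change of 0.55 (SE 0.14, 95% interval 0.25 to 0.86) had an unadjusted p of 0.00207 and an adjusted p of 0.0638 (edgeR), which did not pass the threshold. DESeq2 gave an adjusted p of 0.00688.

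Il12rb2 (ENSMUSG00000018341.12, chromosome 6, 67291318 to 67376188, minus strand) encodes the beta 2 chain, whose tail recruits STAT4. Its control libraries were at 21.4, 54.8, 48.2 and 47.3 CPM and its DKO libraries at 61.0, 67.3, 61.5, 67.5 and 72.3 CPM. All DKO libraries were higher than all controls, and control replicate 1 was far below the other controls. Il12rb2 had a log2 fold change of 0.62 (SE 0.21, 95% interval 0.15 to 1.09) that did not pass the threshold (unadjusted p 0.0140, adjusted p 0.172, edgeR). Without control replicate 1 the difference was smaller, at 0.38, yet the adjusted p was 0.0197. The 3′ part of Il12rb2 shares 1519 exon positions with Serbp1 on the opposite strand, and reads there are left out of the counts used. Summing the stranded columns gave 1.87 times as many counts, and some of those reads can belong to Serbp1. On that sum Il12rb2 averaged 74.6 ± 23.6 CPM over the controls and 111.9 ± 8.14 CPM over the DKO libraries, giving a log2 fold change of 0.59 and an adjusted p of 0.160 (edgeR).

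Without control replicate 1, 3 of the 10 members were called, Il21r, Il12rb1 and Il12rb2, beside 2.12% of all tested genes called higher. With all 9 libraries, DESeq2 and limma-voom each called 2 of the 10, Il21r and Il12rb1. DESeq2 called 3.76% of the 13176 genes to which it gave an adjusted p higher in DKO. For limma-voom that share was 3.09% of 14918 genes.

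**Figure D2:**
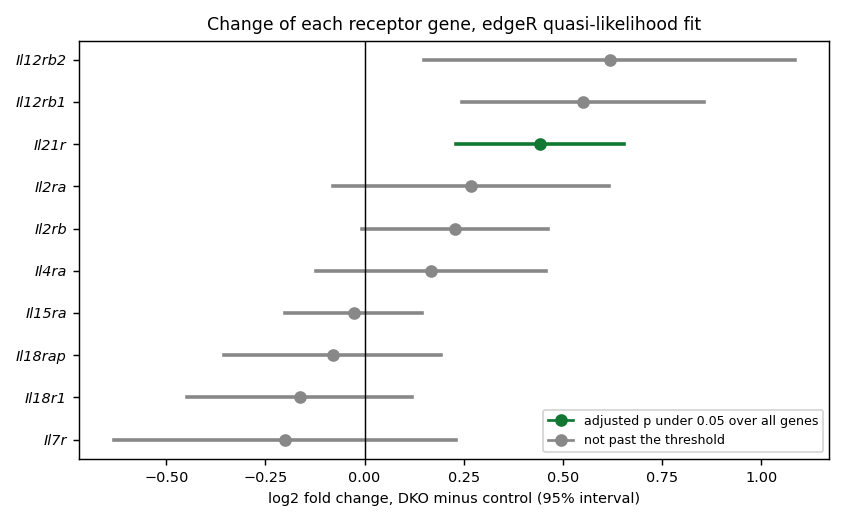
Log2 fold change of each receptor gene (horizontal axis, DKO minus control) with its 95% interval from the edgeR fit, ordered by size; green marks an adjusted p below 0.05 over all tested genes. The intervals of Il21r, Il12rb1 and Il12rb2 lie above 0, only Il21r passes the adjusted threshold, and the other 7 intervals include 0.

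**Figure D3:**
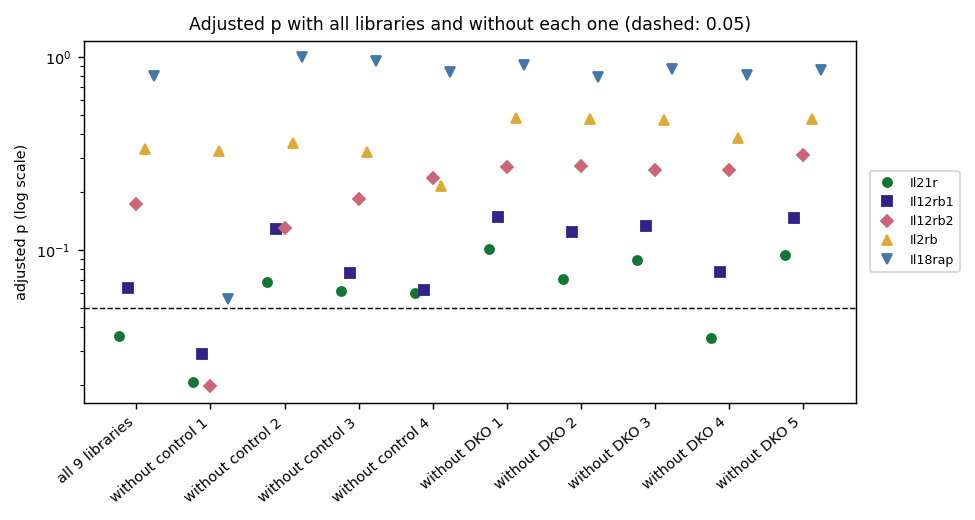
Adjusted p (vertical axis, log scale) of 5 receptor genes with all 9 libraries and with each library left out in turn, from the edgeR fit; the dashed line is 0.05. Il21r is under the line with all libraries, without control 1 and without DKO 4, while Il12rb1 and Il12rb2 are under it only without control 1.

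Both chains of the IL-18 receptor had overlapping groups and slightly negative fold changes. Il18r1 (chromosome 1, 40465552 to 40500854, plus strand) encodes the chain that binds IL-18. It was at 118.9, 140.3, 147.5 and 131.3 CPM in the control libraries and 122.8, 139.9, 131.2, 120.9 and 85.9 CPM in the DKO libraries. Apart from DKO replicate 5, the lowest of all, the groups covered much the same range. Its log2 fold change of -0.16 had a 95% interval of -0.45 to 0.12 (SE 0.13, adjusted p 0.588, edgeR), and was -0.07 without DKO replicate 5.

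Il18rap encodes the accessory chain needed for signalling and lies 14507 bp beyond Il18r1 on the same strand (40515362 to 40551705), with no protein-coding gene between them. Its control libraries were at 771.5, 1260.3, 1225.9 and 1097.9 CPM, and its DKO libraries at 965.9, 1099.9, 1033.2, 1048.6 and 1002.8 CPM. Control replicate 1 was the lowest library, while each of the other controls except replicate 4 exceeded all of the DKO libraries. Over all libraries Il18rap had a log2 fold change of -0.08 (SE 0.13, 95% interval -0.35 to 0.19, adjusted p 0.801, edgeR), and without control replicate 1 it was -0.23 with an adjusted p of 0.0559.

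Control replicate 1 was the lowest of the 9 libraries for 7 of the 10 members, as it was for 29.5% of all tested genes. DKO replicate 5 was the lowest for the remaining members Il7r and Il18r1, and for 9.74% of all tested genes, and control replicate 2 was the lowest for Il15ra. Control replicate 1 also had the largest unmapped share, and the part of that in these values was not tested.

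Scaled for exon length, as TPM (counts divided by exon length and scaled to the library), the 10 members spanned a wide range. Averaged over the 9 libraries, Il2rb was the highest at 888.5 TPM, above 99.2% of all tested genes, followed by Il18rap at 505.5, Il21r at 261.8 and Il7r at 190.4 TPM. Il18r1 was at 84.7 TPM, Il12rb2 at 47.6, Il4ra at 37.2, Il12rb1 at 32.9, Il15ra at 23.8 and Il2ra at 23.7 TPM, still above 60.8% of tested genes. Il2rg, at 541.0 TPM, stood between Il2rb and Il18rap, and exceeded Il18rap in 6 of the 9 libraries. Reads in the 728 of 2387 exon positions that Il2rg shares with Gm20489 were not counted, although the full length was used. The same holds for 1519 of 3794 positions of Il12rb2 and 571 of 6002 of Il4ra. The levels of these genes, and so their places in the order, can be too low. Il2rb exceeded Il2rg, Il18rap exceeded Il21r, and Il7r exceeded Il18r1 in all 9 libraries. The order of the other neighbours was less steady. Il21r was above Il7r in 7 libraries, Il18r1 above Il12rb2 in 8, Il12rb2 above Il4ra in 7, Il4ra above Il12rb1 in 8, Il12rb1 above Il15ra in 8 and Il15ra above Il2ra in 4. The order of the lower genes also depends on the length used: with the longest transcript in place of all exons, Il12rb1 was at 35.6, Il15ra at 34.8 and Il4ra at 32.2 TPM.

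**Figure D4:**
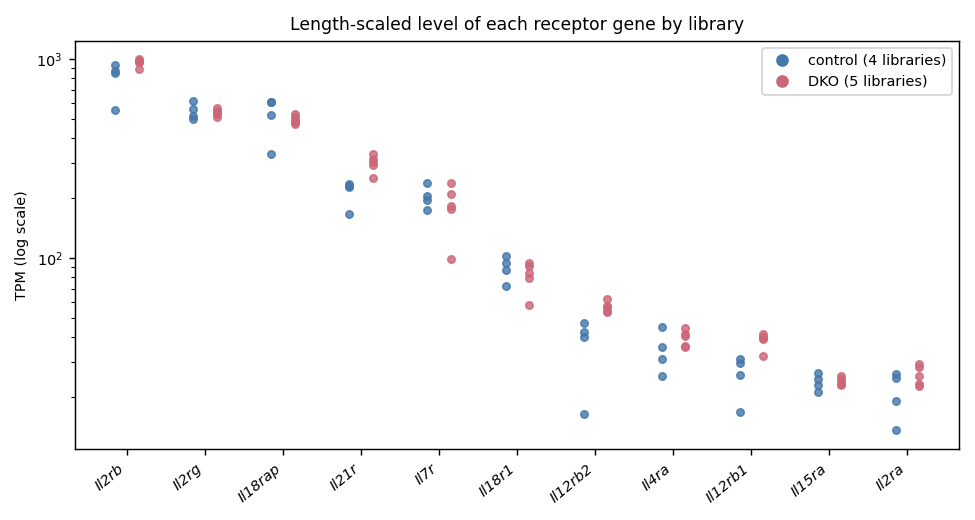
Length-scaled level (TPM, log axis) of the 10 receptor genes and of Il2rg in each control library (blue) and DKO library (red), ordered by the mean over all libraries. Il2rb is highest at 888.5 TPM on average and Il2ra lowest at 23.7 TPM. The Il12rb2, Il2rg and Il4ra levels are from counts without the stretches shared with Serbp1, Gm20489 and Gm44876.

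Ratios of chains within a library remove only differences that act on both genes in equal proportion. The ratio of Il2ra to Il2rb averaged 0.0260 ± 0.00333 over the controls and 0.0269 ± 0.00238 over the DKO libraries, with overlapping groups. The ratio of Il15ra to Il2rb was 0.0381, 0.0269, 0.0305 and 0.0264 in the control libraries and 0.0262, 0.0230, 0.0252, 0.0262 and 0.0242 in the DKO libraries. Every control library was above every DKO library, but the lowest control and the highest DKO value nearly touched. The ratio of Il12rb2 to Il12rb1 was 1.38 ± 0.350 in control and 1.48 ± 0.164 in DKO, with control replicate 1 lowest at 0.979. Its size can be too low in both groups, because the Il12rb2 counts leave out the stretch shared with Serbp1. The ratio of Il18rap to Il18r1 was 5.73 ± 0.767 in control and 6.27 ± 1.18 in DKO, where DKO replicate 5 reached 8.33 and the other DKO libraries lay between 5.61 and 6.19. Control replicate 1 was also the highest library for the ratio of Il15ra to Il2rb and the lowest for Il18rap to Il18r1, at 4.63. It lay within the range of the other controls for Il2ra to Il2rb and for Il21r to Il4ra. These ratios are descriptions and were not tested.

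The pattern of each member over the 9 libraries was set beside those of 8173 genes with a mean of at least 10 CPM, by the root-mean-square difference of z-scored log2 CPM, where 0 is an identical pattern. The measure is shaped by whichever libraries stand apart. For Il7r the nearest gene was another member, Il18r1, at 0.402, followed by Hdgfl3 at 0.425. For Il18r1 the nearest were Stat4 at 0.316 and Mbtps2 at 0.342. For Il21r they were Capn2 at 0.171 and Tbc1d10b at 0.180, and for Il12rb1 Mfhas1 at 0.170 and Dgcr8 at 0.235. Il12rb2 was nearest to Irgq at 0.179 and Sel1l at 0.182. Il2rb had the closest match of all members, Sh3kbp1 at 0.0828, followed by S1pr1 at 0.147. Il18rap was nearest to Ap2b1 at 0.143 and Opa1 at 0.146, Il2ra to Ankrd27 at 0.143 and Klhl12 at 0.291, and Il4ra to Tap2 at 0.206 and Cog7 at 0.248. Il15ra had no close match, with Cyp4f17 at 0.393 and Sec22c at 0.461.

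In the wider pathway, 138 genes were listed by role and 112 passed the low-count filter. Of these, 3 passed the adjusted threshold, Il18 and Eomes among them, and all 3 fell in DKO (1.51% of all tested genes were called lower). DESeq2 called 11 and limma-voom 16 of the listed genes, beside 6.96% and 6.68% of all 14918 genes in either direction.

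Among the ligands, 3 of 14 genes were expressed enough to test. Il18, the ligand of the IL-18 receptor, fell from a mean of 7.31 ± 1.57 to 4.21 ± 0.824 CPM, and edgeR put its log2 fold change at -0.79, with a standard error of 0.19 and an adjusted p of 0.0477. The libraries did not overlap, and the call was kept in 2 of the 9 fits without 1 library. Il18 is abundant in myeloid cells, and on the myeloid marker list Ctss fell from 81.1 to 51.2 CPM (adjusted p 0.00734) and Cd68 from 29.1 to 16.8 CPM (adjusted p 0.0138, edgeR). Of the 9 tested genes on that list of 12, 3 had positive and 6 negative fold changes. In edgeR 2 of the 9 were called lower, beside 1.51% of all tested genes, while DESeq2 and limma-voom called 3 each. The list summed to 440.9 to 723.8 CPM (control) and 479.2 to 536.6 CPM (DKO), mostly from Itgax. Among its defining markers, Lyz2 had means of 2.43 (control) and 5.84 CPM (DKO), Csf1r of 1.84 and 2.37 CPM, and S100a8 was at 0 in every control library; the part of such cells in the Il18 value was not tested. Il15 averaged 6.90 CPM over the controls and 5.73 CPM over the DKO libraries, and Il2 averaged 0.367 and 0.323 CPM, neither past the threshold (adjusted p 0.639 and 0.888, edgeR). Il13, Il21 and Il9 had no count in any library.

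Among the 19 tested of 34 other interleukin receptor genes, none passed the threshold, 7 had positive and 12 negative fold changes, and 3 had an unadjusted p under 0.05. Over all 14918 tested genes, 2384 had an unadjusted p under 0.05 in edgeR, the background for this and the following lists. Of the 19 other interleukin receptor genes, DESeq2 called 0 and limma-voom 2. The smallest p belonged to Il6st, the gp130 chain shared by the receptors of the IL-6 family, with means of 18.0 ± 7.00 (control) and 28.2 ± 3.27 CPM (DKO) and a log2 fold change of 0.65 (adjusted p 0.222, edgeR). Its lowest library was control replicate 1, at 8.27 CPM.

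None of the 12 tested genes of IL-18 signalling passed (1 at an unadjusted p under 0.05, 0 by DESeq2 and 0 by limma-voom). The smallest p was that of Tollip, an inhibitor of receptor-proximal IRAK kinases, at 135.4 ± 23.6 and 169.7 ± 10.7 CPM (log2 fold change 0.33, adjusted p 0.189, edgeR). None of 20 feedback inhibitors, the SOCS and PIAS proteins and phosphatases, passed in edgeR, where 5 had an unadjusted p under 0.05, while DESeq2 called 2 and limma-voom 1. Ptpn1, a phosphatase that acts on JAK2 and TYK2, averaged 264.6 ± 10.1 CPM over the controls and 313.8 ± 11.3 CPM over the DKO libraries, without overlap (log2 fold change 0.25, adjusted p 0.0782, edgeR).

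Of 22 genes known to respond to these cytokines, none passed in edgeR, and DESeq2 and limma-voom called 3 each. In edgeR 7 of the 22 had an unadjusted p under 0.05, beside 2384 of all 14918 tested genes. Prf1, the pore-forming protein of cytotoxic granules, had the smallest p, with means of 629.1 ± 93.7 (control) and 476.3 ± 26.3 CPM (DKO; log2 fold change -0.40, adjusted p 0.0516, edgeR). Of 23 transcription factors that act on receptor genes or on effector and memory fate, Eomes was the one that passed in edgeR. Of the 23, 9 had an unadjusted p under 0.05 in edgeR, and DESeq2 called 4 and limma-voom 5. Eomes, a T-box factor known to promote Il2rb expression in CD8+ T cells, fell from 71.9 ± 11.3 to 51.4 ± 5.12 CPM (log2 fold change -0.48, adjusted p 0.0497, edgeR). That call was kept in 1 of the 9 fits without 1 library. In edgeR Eomes was also the only gene called among 15 markers of effector and memory subsets. Of these 15, 9 had positive and 6 negative fold changes, and 6 had an unadjusted p under 0.05. DESeq2 called 3 and limma-voom 5 of the 15. Eomes stands on the NK and innate lymphoid list too, which has 9 genes, summed to 606.7 to 643.3 CPM (control) and 540.7 to 594.9 CPM (DKO), and had Klre1 called lower (adjusted p 0.00937, edgeR). Of its 8 tested genes, 2 had positive and 6 negative fold changes. In edgeR 2 of the 8, Eomes and Klre1, were called lower, beside 1.51% of all tested genes, while DESeq2 called 3 and limma-voom 2. The defining NK marker Ncr1 was at 0.0707 (control) and 0.0618 CPM (DKO), and the part of such cells in these values was not tested.

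**Figure D5:**
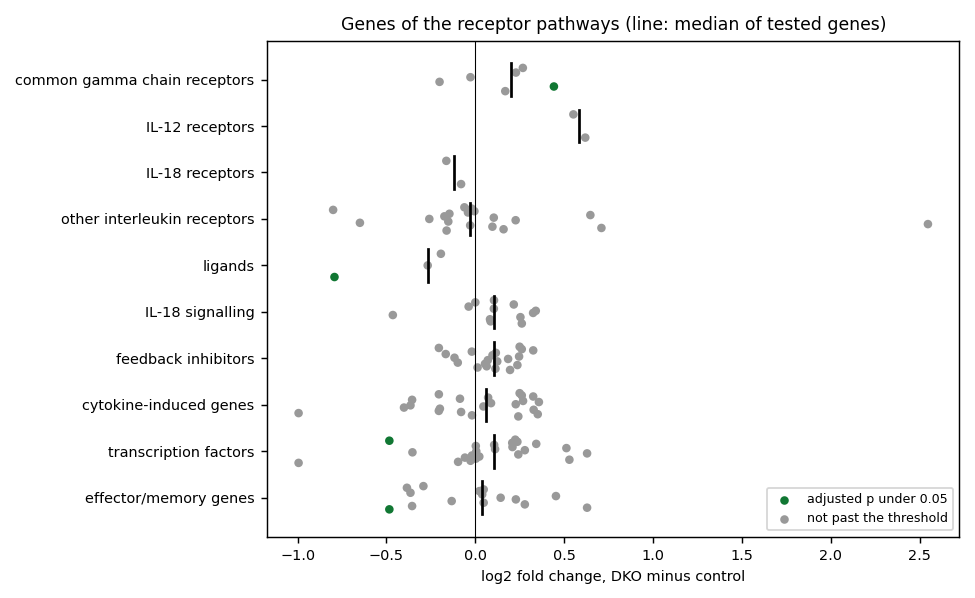
Log2 fold change (horizontal axis, DKO minus control) of each tested gene of 10 of the lists, by list; the black line is the list's median and green marks an adjusted p below 0.05 over all tested genes. Green points are Il21r among the common gamma chain receptors, Il18 among the ligands, and Eomes, which is on 2 lists; the isolated point at 2.55 is Il20ra, which is at under 1 CPM in all libraries.

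Receptors can also come from other cells in a sort. Il2ra and Il7r differ between regulatory and conventional CD4 T cells, and the regulatory T cell markers Foxp3 (0.137 CPM over the controls and 0.212 CPM over the DKO libraries) and Cd4 (0.172 and 0.344 CPM) were near 0. The 7 genes of that list summed to 237.2 to 298.8 CPM (control) and 215.6 to 281.9 CPM (DKO), so the sum came from genes other than Foxp3 and Cd4. Of the 7, 5 averaged over 1 CPM, and 4 had positive and 3 negative fold changes. In edgeR none was called and 3 had an unadjusted p under 0.05, while DESeq2 called 1 and limma-voom 2. The CD4 T cell list of 4 genes summed to 33.5 to 39.5 and 35.4 to 47.3 CPM. For B cells, which express Il21r and Il4ra, Pax5 had no count in any library, and Ms4a1 averaged 0.237 CPM over the controls and 0.153 CPM over the DKO libraries. The 12 B cell genes summed to 186.9 to 270.7 CPM (control) and 195.5 to 215.7 CPM (DKO), mostly from Ighm.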

How the data were processed

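Per the protocols in the labels, polyadenylated RNA of 4 control and 5 DKO samples was amplified with Takara Smartseq v4 and tagged with Nextera Flex. The deposited values are whole-number counts of reads per gene in STAR's format, unstranded and for each strand, as the authors made them. STAR 2.7.8a, Trim Galore 0.6.0 and mm10 are named in the submitters' processing notes, and the sources used here give no annotation. The unstranded counts were used. The 55471 identifiers were matched to GENCODE M21 with the version dropped (55230 matched).

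The counts were tested with edgeR 4.0.16 (R 4.3.3; filterByExpr with a minimum count of 10, TMM, robust quasi-likelihood fit, Benjamini-Hochberg adjustment over all 14918 tested genes). Steps were tested on simulated data. Library depth of 45205993 to 59853080 counts gave each member at least 1037 counts per library. CPM values use TMM-scaled library sizes, and TPM values use exon length from GENCODE M21, with no test. Alternatives were DESeq2 1.42.0 (its size factors in edgeR, and its Wald test), limma 3.58.1 voom with quality weights, other low-count filters (none, or 1 CPM in 4 libraries), summed strand columns, 1 surrogate variable (sva 3.50.0), a replicate block, and leaving out each library. Leaving out control replicates 1 and 3 together was added after seeing the data.

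The members and lists were chosen with earlier results of these data known, and no list was tested as a set. Named genes were the 10 members, Oxct1, Bdh1 and Il2rg; listed genes past the threshold or, where a list had none, its gene with the smallest p; ligands past the filter; and the 2 genes nearest to each member in pattern. Marker genes and others are named beside the results they touch. Sequences are from RefSeq. Some genes that this rule or the marker lists name are not reported here.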

Additional observations from a re-analysis of the deposited data

Results flagged for a closer look

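Among 54 groups of values checked for a single sample far from the rest (the named genes' CPM and the chain ratios, in control and in DKO), 1 was found. The ratio of Il18rap to Il18r1 was 8.33 in DKO replicate 5, and the other 4 DKO libraries lay between 5.61 and 6.19; the gap to the nearest of them was 0.786 of the whole range of the group. Chance marks about 1 in 20 groups by this rule.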

How the results depend on the processing

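Of the 10 receptor genes, the 1 called in the edgeR fit became 2 with DESeq2, 2 with limma-voom, 2 with a stricter filter and 3 with 1 surrogate variable, and 0 when both control 1 and control 3 were left out. Leaving out 1 library gave 0 to 3, with 3 only without control replicate 1. Of the listed pathway genes, the 3 called became 11 with DESeq2, 16 with limma-voom, 1 with no low-count filter, 10 with 1 surrogate variable and 8 without both controls, and leaving out 1 library gave 1 to 12. Over all genes, 422 calls became 1038 with DESeq2, 996 with limma-voom, 732 with 1 surrogate variable, and 179 to 749 without 1 library. The causes were not tested. Il2ra changed direction when both controls were left out (log2 fold change -0.02), and Il15ra with limma-voom (0.01) and when single libraries were left out (-0.06 to 0.004, above 0 only without control replicate 3). The other 8 members kept their direction in every alternative run.

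With the replicate number as a block, 0 of the 10 receptor genes, 0 pathway genes and 67 genes in all were called, and Il21r had a log2 fold change of 0.42. The numbers were not shown to pair the samples: the 4 pairs with the same number had correlations of -0.117 to 0.0124, and none of these libraries correlated best with its own number. Depth does not limit the members, which had 1037 to 77644 counts per library, but 11 of the 14 ligand genes were below the filter.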

Other observations

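Other interleukin receptors also had many counts in these cells. Chosen after the values were seen, those of the list of other interleukin receptors with the most CPM, leaving out Il2rg, were Il17ra, the shared chain of the IL-17 receptors (604.9 ± 113.4 in control and 707.9 ± 57.0 in DKO), Il10ra, the ligand-binding chain of the IL-10 receptor (305.4 ± 36.3 and 270.7 ± 14.3), and Il27ra, of the IL-27 receptor (258.3 ± 20.2 and 276.1 ± 11.6; SD, n = 4 and n = 5). None passed the threshold (adjusted p 0.409, 0.375 and 0.581, edgeR), and the libraries of the groups overlapped for each. At the other end, Il13ra2 and Il22ra1 had no count in any library.

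Runx3, a transcription factor of the CD8 lineage, was also named after its values were seen. It was at 114.1, 223.2, 222.5 and 216.4 CPM in control and 289.6, 265.2, 270.6, 275.7 and 282.8 CPM in DKO, without overlap. Its log2 fold change of 0.51 did not pass the threshold (SE 0.17, adjusted p 0.147, edgeR), and without control replicate 1 the adjusted p was 0.00627.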
